A study of Drosophila melanogaster with 8 samples.

Results

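The CCT genes encode the chaperonin TRiC, the cytosolic folding machine of eukaryotes. The 8 members CCT1 to CCT8 were taken by name from the Ensembl BDGP6.54 gene models in dm6 coordinates, where 18358 genes remained after transposable element entries were left out. Every NELF-E peak over their starts and bodies was then read. The chromatin came from Kc167, a Drosophila melanogaster cell line that is female and was derived from embryos. Fragments bound by NELF-E, 1 of the proteins of the Negative Elongation Factor (NELF), were immunoprecipitated and sequenced (ChIP-seq). The libraries were 2 mock libraries, from cells transfected without siRNA (genotype label control), and 2 AGO2 knockdown libraries, from cells transfected with an siRNA against AGO2 (siAGO2, genotype label Ago2 knockdown). The siRNA amount was 100 pmol, and cells of both groups were collected 3 days after transfection. The 4 input samples were not analysed here. AGO2 (Argonaute2) is a small RNA binding protein. The lists do not measure its amount, so the depletion itself could not be checked from them, and the labels do not say whether replicates came from separate cultures. All libraries came from a single established cell line.

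NELF holds RNA polymerase II in a paused state shortly after it has begun to transcribe, and a NELF peak just downstream of a start is the usual mark of such a promoter. The chaperonin is built of stacked rings in which each of the 8 subunits (alpha to theta, for CCT1 to CCT8) takes its own place, so an assembled complex needs all of them. It uses ATP to fold actin, tubulin and a number of WD40 repeat proteins. Prefoldin brings newly made actin and tubulin to it.

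The depth of the libraries was unequal and followed treatment. The lists held 7944 (mock 1), 6933 (mock 2), 5904 (knockdown 1) and 6206 (knockdown 2) peaks as called by MACS2. The genome-wide background under a summit, which stands for depth, was 4.46 and 2.19 fragments for mock against 1.18 and 1.48 fragments for knockdown. Depth and treatment cannot be told apart here, since no knockdown library was as deep as a mock library. Of 5 hemocyte genes chosen as markers of this line, srp, ush, Pxn and Hml had a start peak in all 4 lists and He had none. The lists do not measure expression, so this says only that NELF-E was found at those starts.

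The promoters are shown first because the start is where the peaks lay. The windows run from 100 bases before the annotated start through its first 30 bases, 5′ to 3′ on the coding strand, from Release 6 of the genome, the assembly behind dm6. Capitals mark matches to the motifs named in the next paragraphs (CTCTC is GAGAG on the other strand). CCT5 and CCT8 are described without their sequence.
CCT1: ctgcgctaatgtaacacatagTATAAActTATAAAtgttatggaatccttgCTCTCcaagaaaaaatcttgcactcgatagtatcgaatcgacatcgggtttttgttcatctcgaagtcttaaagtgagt
CCT2: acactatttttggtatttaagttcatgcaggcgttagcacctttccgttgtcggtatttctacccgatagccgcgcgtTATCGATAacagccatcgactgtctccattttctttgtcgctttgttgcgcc
CCT3: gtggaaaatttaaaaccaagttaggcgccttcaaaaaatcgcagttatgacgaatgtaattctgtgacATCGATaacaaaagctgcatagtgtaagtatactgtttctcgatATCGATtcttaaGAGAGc
CCT4: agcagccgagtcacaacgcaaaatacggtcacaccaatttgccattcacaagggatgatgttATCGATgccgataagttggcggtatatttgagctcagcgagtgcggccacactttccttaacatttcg
CCT6: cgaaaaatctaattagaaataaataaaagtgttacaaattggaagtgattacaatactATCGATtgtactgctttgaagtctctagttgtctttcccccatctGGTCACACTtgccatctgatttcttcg
CCT7: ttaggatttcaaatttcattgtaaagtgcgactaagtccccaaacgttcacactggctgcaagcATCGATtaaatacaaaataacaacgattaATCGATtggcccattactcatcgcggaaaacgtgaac

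These windows lie at chr3R:22491410-22491539 on the minus strand (CCT1), chrX:9089413-9089542 on the plus strand (CCT2), chr3R:16647505-16647634 on the plus strand (CCT3), chr2L:12692905-12693034 on the minus strand (CCT4), chrX:15746548-15746677 on the plus strand (CCT6) and chr3R:8801464-8801593 on the plus strand (CCT7). Motifs were searched on both strands from 250 bases before the start to 50 after it, in the members and in 13968 protein-coding promoters. The DNA replication-related element, TATCGATA, was found at CCT2 and CCT5, and 9.36% of all promoters held it. The core of Ohler motif 1, GGTCACACT, was found at CCT6 (6.04% of all promoters). GAGAG, the letters bound by GAGA factor, was found at CCT1, CCT3 and CCT4 (29.7%). The TATA letters TATAAA were found at CCT1, CCT3 and CCT5 (45.8%), and in CCT1 they began at positions −79 and −71, with the start base as 0. The initiator letters TCAGT were found at CCT5 and CCT8 (51.5%). No member held the E-box CACGTG (4.20% of all promoters) or the heat shock element (0.430%).

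When the windows were read, the shorter run ATCGAT, the centre of the DNA replication-related element, was seen in most of them and was then counted. It was found in 8 of 8 members and in 23.3% of all promoters. Within the 50 bp before the start it was found in 7 of 8 members, all but CCT1, and in 9.91% of all promoters. In those 7 genes it began between positions −42 (CCT6) and −21 (CCT2), and CCT7 held a second one at −7. Among the 3407 promoters of genes with a start peak in all 4 lists, 30.2% held ATCGAT anywhere in the window. Within the 50 bp before the start, 14.9% of these 3407 promoters held it. These letters were chosen after the sequences were seen, and a match is only a description of the sequence.

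NELF-E was found at the starts of nearly all members. A start peak, here a peak that covers an annotated transcript start, was present at 7 of the 8 genes in each library, and these were the same 7 genes in all 4 lists (CCT1, CCT2, CCT4, CCT5, CCT6, CCT7 and CCT8). Of all genes, 19.6% had a start peak in all 4 lists, and of protein-coding genes 24.4%. A peak over any part of the gene, start peaks included, was found in all 4 lists at 7 of 8 members. The shares were 27.1% of all genes and 33.2% of protein-coding genes. Peaks away from the start are given further below. A peak is an average over the cells of a library, so fewer occupied cells and less NELF-E per cell cannot be told apart.

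**Figure D1:**
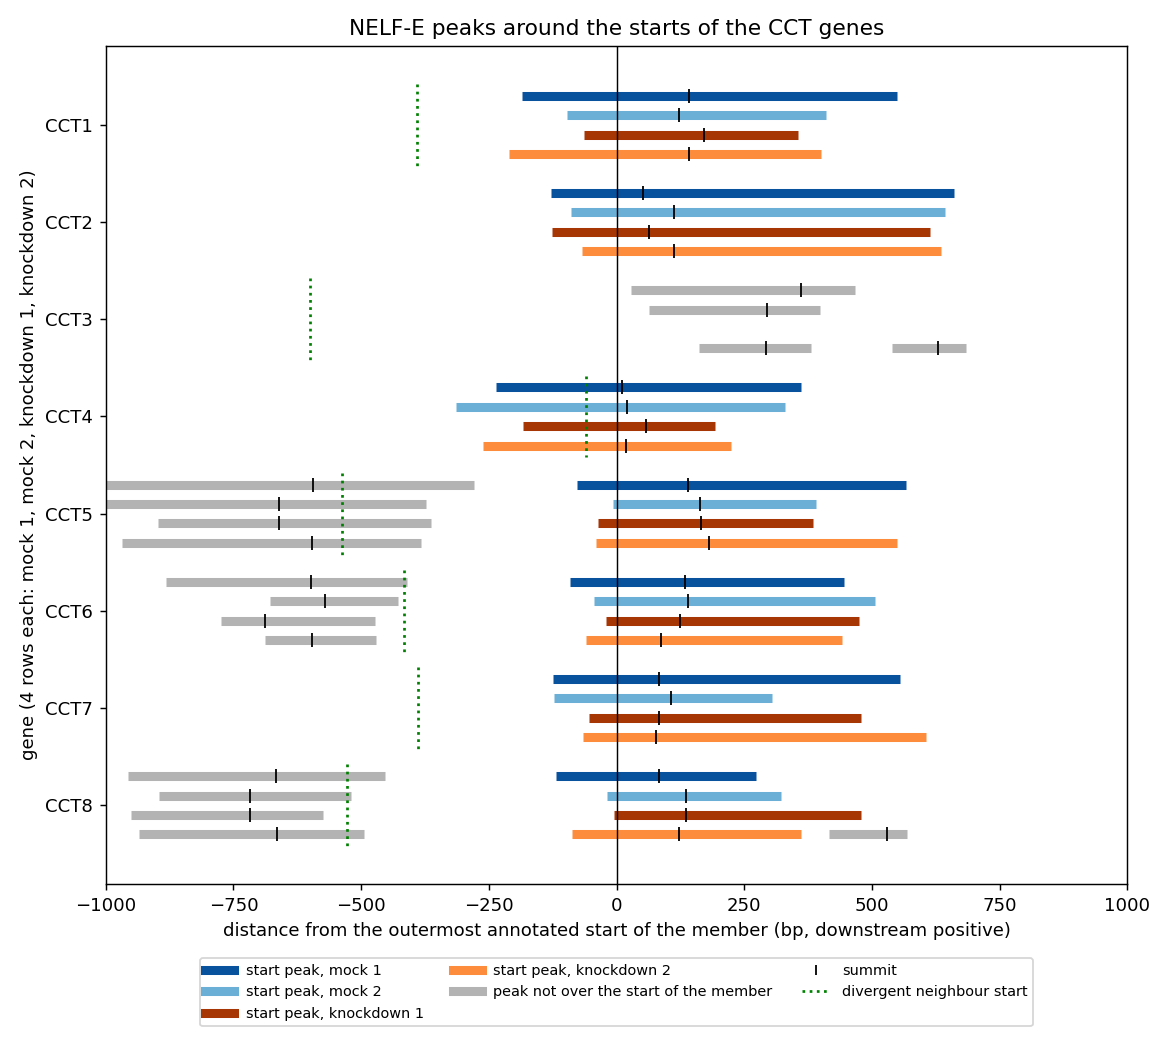
Extent of the NELF-E peaks (bars) and their summits (black ticks) around the outermost start of each CCT gene, in bp with downstream positive, for the 4 libraries. At 7 genes a start peak (coloured) was in all 4 lists, while the peaks of CCT3 (grey) began 28 to 162 bp downstream of its start and none was listed in knockdown 1; green dotted lines mark the starts of divergent neighbours.

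CCT3, the gamma subunit (3R, 16647605 to 16649978, plus strand), was the exception. Its peak began 28, 63 and 162 bp downstream of the start in mock 1, mock 2 and knockdown 2, and its summit lay 361, 294 and 292 bp downstream. The coding sequence of CCT3 begins 291 bp from the start, so the summits lay at the beginning of the coding sequence or, in mock 1, in an intron. The peak was weak, with folds of 3.53, 3.80 and 4.04 over the local background. Its score, which orders the peaks of a list by q-value, stood at percentile 24.6, 14.8 and 13.5 of the respective lists. Thus CCT3 lacked the peak over the start that the other members had, and it carried a low peak further into the gene.

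No CCT3 peak was listed in knockdown 1, the shallowest library. The CCT3 summit held 45, 20 and 14 fragments in mock 1, mock 2 and knockdown 2. Scaled to the depth of knockdown 1, these come to 11.9, 10.8 and 11.2 fragments. Knockdown 1 listed summits of as few as 8 fragments at local backgrounds like that of CCT3. Whether depth has a part in the missing peak was not tested. A second peak over CCT3, in knockdown 2 alone, had its summit 629 bp downstream, in a coding exon, at percentile 2.02.

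Among the 7 genes with a start peak, CCT1, CCT2 and CCT6 ranked highest. The rank of a start peak was given as the percentile of its score within its own list. The mean over the 4 libraries was 81.1 ± 1.84 for CCT1, 76.5 ± 6.32 for CCT2 and 73.5 ± 2.07 for CCT6 (SD, n = 4). It was 61.7 ± 6.08 for CCT4, 55.5 ± 6.61 for CCT5, 54.3 ± 6.83 for CCT7 and 53.5 ± 9.19 for CCT8 (SD, n = 4). The ranges of neighbours in this order overlapped, with the exception of CCT6 and CCT4, where the lowest value of CCT6 (71.3) lay above the highest of CCT4 (67.3). The members thus fell into an upper group of 3 and a lower group of 4. The median over the 7 members was 67.3, 58.3, 54.8 and 66.2 in mock 1, mock 2, knockdown 1 and knockdown 2. Over the 3589 genes with a start peak in all 4 lists it was 78.5, 74.7, 70.3 and 72.4, higher in each library.

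CCT1 encodes the alpha subunit (FBgn0003676; 3R, 22489105 to 22491439, minus strand). Its percentile was 82.2 and 79.1 in the mock replicates and 80.1 and 83.1 in the knockdown replicates, which overlap. Its summit held 164 and 100 fragments in mock against 65 and 74 fragments in knockdown libraries. Division by the genome-wide background of the library gave a depth-scaled height of 36.8 (95% exact Poisson interval 31.4 to 42.8) and 45.7 (37.2 to 55.5) in mock. It gave 55.1 (42.5 to 70.2) and 50.0 (39.3 to 62.8) in knockdown. These intervals cover counting error only. Both knockdown heights lay above both mock heights, but the interval of each mock library overlapped those of both knockdown libraries. The authors' fold at CCT1 was 13.8 and 13.9 in mock against 19.9 and 22.5 in knockdown libraries. The summit lay 122 to 172 bp downstream of the start, in a coding exon in each library.

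CCT2 encodes the beta subunit (FBgn0030086; X, 9089513 to 9092826, plus strand) and overlaps the microRNA gene mir-13b-2. Its percentile was 80.2 and 76.3 in mock against 67.7 and 81.9 in knockdown replicates. The knockdown replicates thus lay on either side of the mock replicates. Its height was 34.3 (29.1 to 40.2) and 38.8 (31.0 to 48.0) in mock against 39.0 (28.5 to 52.0) and 49.3 (38.7 to 62.0) in knockdown. The lower knockdown height and the higher mock height were almost the same. The CCT2 start peak was the widest of the members in each library, at 790 and 732 bp in mock against 742 and 705 bp in knockdown. Its summits alternated between 52 to 63 bp downstream, in the 5′ untranslated part of the first exon, and 112 to 113 bp downstream, in the first intron.

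CCT6, the zeta subunit (FBgn0027329; X, 15746648 to 15748971, plus strand), gave the closest replicates. Its percentile was 75.6 and 75.0 in mock against 71.3 and 72.3 in knockdown replicates, so both knockdown values lay below both mock values. The difference of −3.51 points had the smallest p-value that 2 libraries against 2 allow (two-sided exact permutation test, p = 0.333). The sign turned with the ranking, to 3.41 points among start peaks held by all 4 lists and to 2.18 points when each list was cut to the same number of peaks. Its height was 33.6 and 39.3 in mock against 39.0 and 37.8 in knockdown, which overlap. The summit lay 87 to 140 bp downstream of the start.

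CCT7, the eta subunit (FBgn0037632; 3R, 8801564 to 8806234, plus strand), had percentiles of 62.6 and 57.0 in mock against 47.8 and 49.6 in knockdown replicates. Its difference of −11.1 points was the largest of the 7 members on this scale, and again both knockdown values lay below both mock values (exact permutation p = 0.333). It came to −2.16 points with lists of equal length and to −1.48 points among shared start peaks, where the groups overlapped and the difference was the smallest of the 7. Its height did not follow this, at 21.1 and 25.1 in mock against 25.4 and 20.9 in knockdown. The fold was 7.95 and 6.81 in mock against 6.52 and 6.92 in knockdown, which also overlap. The summit lay 78 to 106 bp downstream, in the 5′ untranslated part of the first exon. CCT7 was the longest member, at 4671 bp, and it overlaps the gene CG9839 on the opposite strand.

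CCT4, CCT5 and CCT8 (the delta, epsilon and theta subunits) shared a pattern with CCT2 in which the knockdown replicates were far apart. At CCT4 (FBgn0032444; 2L, 12690336 to 12692934, minus strand) the percentile was 67.3 and 58.3 in mock against 54.8 and 66.2 in knockdown. At CCT5 (FBgn0010621; 2R, 12174802 to 12177516, plus strand) it was 59.5 and 54.0 in mock against 46.9 and 61.7 in knockdown. At CCT8 (FBgn0284436; 2R, 8904844 to 8906990, minus strand) it was 59.6 and 49.6 in mock against 42.5 and 62.4 in knockdown. Knockdown 2 exceeded knockdown 1 by 14.2 points at CCT2, 11.4 at CCT4, 14.8 at CCT5 and 19.9 at CCT8. The same gap was 3.00 points at CCT1, 0.978 at CCT6 and 1.73 at CCT7. Over the 3589 genes its median was 1.13 points and the median of its size was 3.97 points. The mock replicates also differed, with mock 1 above mock 2 by 3.84 points at CCT2, 9.04 at CCT4, 5.51 at CCT5 and 10.0 at CCT8. The median size of this mock gap over the 3589 genes was 4.99 points. The spread between the knockdown replicates was therefore wider than any difference between the groups at these 4 genes. Their exact permutation p-values were 0.667 at CCT4 and 1 at CCT2, CCT5 and CCT8, and that of CCT1 was 0.667.

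The heights of these weaker members rested on few fragments in the knockdown libraries. CCT4 held 111 and 52 fragments in mock against 29 and 42 in knockdown, and its height was 24.9 and 23.7 in mock against 24.6 and 28.4 in knockdown. CCT5 held 102 and 47 against 24 and 40 fragments, with heights of 22.9 and 21.5 against 20.3 and 27.0. CCT8 held 84 and 38 against 25 and 36 fragments, with heights of 18.8 and 17.4 against 21.2 and 24.3. Both knockdown heights lay above both mock heights at CCT8 alone among these 3 genes. The interval of knockdown 1 (13.7 to 31.3) took in both mock heights all the same.

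**Figure D2:**
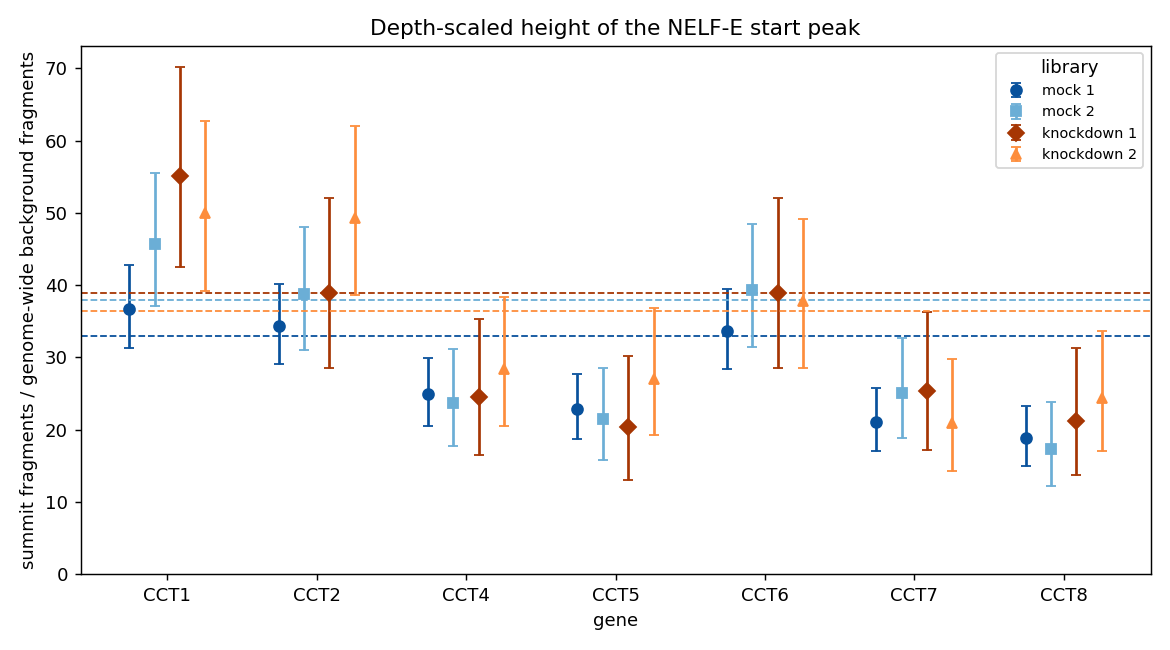
Depth-scaled height (summit fragments over the genome-wide background fragments of the library) of the start peak of 7 CCT genes in the 4 libraries, with 95% exact Poisson intervals for counting error. Dashed lines are the medians of each library over 3589 genes with a start peak in all 4 lists (33.0, 37.9, 39.0 and 36.5 in mock 1, mock 2, knockdown 1 and knockdown 2); CCT4, CCT5, CCT7 and CCT8 lie below them in each library.

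Across the members, the call of a difference between mock and AGO2 knockdown depended on the scale. By percentile within the whole list, both knockdown values lay above both mock values at 0 of 7 members (8.02% of the 3589 genes) and below them at 2 of 7, CCT6 and CCT7 (44.3% of the genes). The mock lists were longer, and weak peaks added to a list raise the percentile of the others. Whether list length has a part in the lower knockdown percentiles was not tested. When ranks were taken only among start peaks held by all 4 lists, 3 of 7 members lay above (CCT1, CCT4 and CCT5, against 23.8% of the genes) and 0 below (20.2%). By depth-scaled height, 3 of 7 lay above (CCT1, CCT2 and CCT8, against 40.0%) and 0 below (10.5%). With the height divided by the median shared summit in place of the background, 1 of 7 lay above (CCT1, against 35.9%) and 0 below (16.7%). By the authors' fold, 4 of 7 lay above (CCT1, CCT4, CCT5 and CCT6, against 35.1%) and 0 below (14.7%). Among these 5 scales, CCT1 was above on each but the first, on which its groups overlapped, and CCT7 was above on none of them. No member lay above on all 5 scales or below on more than 1 of them. By a further scale, the percentile of the fold within the list, 0 of 7 lay above (15.8%) and 1 below (33.9%). CCT1 was thus not above on that scale either.

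The difference in height was set beside that of other genes. The knockdown mean over the mock mean was 1.09 at the median of the 7 members and ranged from 1.004 at CCT7 to 1.27 at CCT1. Over the 3589 genes the median was 1.13. With 2 libraries a group, an exact permutation test of a single member cannot give a p-value under 0.333, and it measures only the spread between these libraries, which may be technical.

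**Figure D3:**
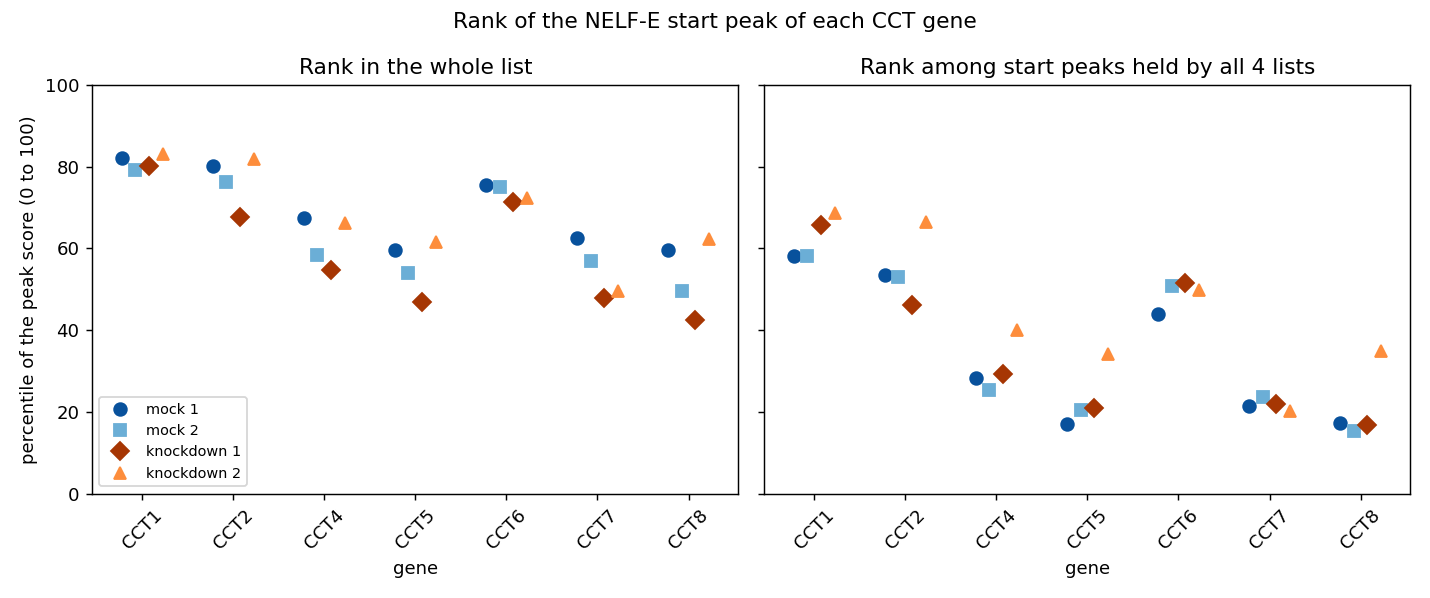
Percentile of the score of the start peak of 7 CCT genes in the 4 libraries, on the left within the whole list and on the right among the start peaks of the 3589 genes held by all 4 lists. On the left both knockdown points lie below both mock points at CCT6 and CCT7, on the right both lie above at CCT1, CCT4 and CCT5, and at CCT2, CCT4, CCT5 and CCT8 the knockdown replicates lie 11.4 to 19.9 points apart on the left.

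The summits of the start peaks lay downstream of the outermost start at each member. The median distance of the summit from the nearest annotated start over the 7 members was 83 and 113 bp in mock against 84 and 87 bp in knockdown libraries, against 61 and 64 bp and 67 and 68 bp over the 3589 genes. In these medians CCT5 entered at −131, −128 and −114 bp in mock 2, knockdown 1 and knockdown 2, upstream of its inner start. Measured from the outermost start, the mean of the 4 medians was 110.5 bp in place of 91.8 bp. CCT4 had its summits nearest to the start, at 11 to 58 bp. CCT5 has 2 annotated starts, and its peak covered both of them, with summits 140 to 180 bp downstream of the outer one. The median width of the start peak was 646 and 508 bp in mock against 485 and 589 bp in knockdown, against 700 and 578 bp and 526 and 580 bp over the 3589 genes.

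The members were mostly compact genes with a divergent neighbour. A protein-coding gene on the opposite strand began within 1500 bp upstream at 7 of 8 members, all but CCT2, and at 39.4% of protein-coding genes. NELF-E at those neighbours was uneven. Oda, the ornithine decarboxylase antizyme gene 538 bp from CCT5, had its own start peak in all 4 lists, with folds of 27.4 and 30.1 in mock against 29.5 and 23.0 in knockdown. The corresponding folds of CCT5 were 6.32, 7.05, 7.55 and 9.33. CG6153, 59 bp from CCT4, had its start covered by the CCT4 peak in each list, so that the signal of these starts was not separated, although the summits lay on the CCT4 side. CG30349, 528 bp from CCT8, had a start peak in 3 lists and CG8944, 417 bp from CCT6, in 1, although in each list a summit lay on the far side of both starts. The starts of tHMG1 (390 bp from CCT1), CG10324 (601 bp from CCT3) and Pif1B (388 bp from CCT7) had none in any list. At CCT1 and CCT7 the peak was thus on the side of the chaperonin gene alone.

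Peaks over the member bodies away from the start were few. There were 2 in mock 1, 2 in mock 2, 1 in knockdown 1 and 4 in knockdown 2. The one found in all 4 lists lay in CCT7, 3880 to 3979 bp from its start in an intron, and it covered the start of CG9839 on the other strand. Its percentile was 51.8 and 39.7 in mock against 15.1 and 48.1 in knockdown, which overlap. The others were those of CCT3 given above and a weak peak 529 bp into CCT8, in knockdown 2 alone, at percentile 7.13. Apart from the peak at the CG9839 start, no summit over a member lay further than 629 bp from its start.

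Start peaks were also read at the partners of the chaperonin, with no test against the members. Of the 6 prefoldin genes, 1 had a start peak in all 4 lists, Pfdn2, with percentiles of 74.5 and 62.0 in mock against 54.3 and 63.3 in knockdown. Another 4 had one in at least 1 list, and mgr had none. Pfdn5, whose start lies downstream of the CCT1 gene end, had a start peak in both mock lists and knockdown 1, with folds of 10.9, 10.1 and 11.7. The phosducin-like genes viaf and CG7650 had start peaks in 2 lists and 1 list. Of the 5 mitochondrial chaperonin genes, Hsp60A (percentiles of 85.2 and 74.5 against 68.1 and 78.2) and the Hsp10 gene CG11267 had a start peak in all 4 lists, and Hsp60B, Hsp60C and Hsp60D had none. Hsp60A and CG11267 encode the rings and the lid of the related folding machine of mitochondria.

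Genes of the Hsp70 and Hsp90 machinery and substrates of the chaperonin were read in the same way. Start peaks in all 4 lists were found at 4 of 5 cytosolic Hsp70 and Hsp90 genes (Hsc70-4, Hsp83, Droj2 and DnaJ-1) and at 4 of 6 substrates (Act5C, Act42A, alphaTub84B and betaTub56D). The median of the mean percentiles of the genes covered throughout was 80.4 for the former and 88.6 for the latter. Act5C, the major cytoplasmic actin, had percentiles of 92.5 and 94.3 in mock against 89.0 and 91.7 in knockdown, above each CCT gene in each library. Of the 11 partner and substrate genes with a start peak throughout, both knockdown percentiles lay below both mock percentiles at 5 (CG11267, Hsc70-4, DnaJ-1, Act5C and betaTub56D) and above them at 0. Over the 3589 genes the shares were 44.3% below and 8.02% above, so the share of these genes was near that of all genes. Ranked among shared start peaks, 3 of the 11 lay below (20.2% of the 3589 genes) and 0 above (23.8%).

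The 3 protein-coding genes outside these lists with percentiles nearest to the medians of the members over the 4 libraries were Flacc, CG8635 and NT5E-2. Their mean absolute differences were 1.08, 1.63 and 1.86 points. A likeness over 4 libraries of peak ranks is a description of the lists only.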

How the data were processed

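NELF-E ChIP-seq peaks were read in 2 mock and 2 AGO2 knockdown libraries of Kc167 cells. Per the submitters' processing notes and the methods, the authors trimmed reads with cutadapt 1.10, aligned them to dm6 with Bowtie2, kept a mapping quality of at least 20, removed duplicates with Picard 2.11.0 and called peaks in each library with MACS2 2.1.1.20160309. Versions are those of the notes, and the methods name others for cutadapt and Picard. The deposited columns used were the peak score (10 times −log10 of the q-value), the fold over local background (a ratio), and the −log10 p-value and −log10 q-value, all from the authors' MACS2 runs. The lists hold no read counts, so a count model was not run.

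Peaks were joined to Ensembl BDGP6.54 gene models (release 115). A gene took its highest-scoring peak over an annotated start. Summit fragments and local background were solved from the deposited fold and p-value with a Poisson model, which recovered all 26987 peaks to within 0.002 of −log10 p. Height was summit fragments divided by a genome-wide background, for which the smallest local background occurring at 1% or more of a list's peaks was taken. Intervals are exact Poisson at 95%. Python 3.11.15, numpy 2.4.6, scipy 1.17.1 and matplotlib 3.10.9 were used, and the steps were tested on simulated data. Promoter sequence came from the RefSeq Release 6 genome, whose chromosome lengths matched dm6.

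The named genes were the 8 members, their divergent neighbours within 1500 bp and overlapping genes, the genes of the lists of prefoldin, phosducin-like, mitochondrial chaperonin, Hsp70 and Hsp90 and substrate genes, hemocyte markers, and the 3 genes most like the members. Members and lists were chosen with earlier results of these data known. Alternatives were other start windows, a stricter score, equal list lengths, ranks among shared starts, other scalings, a replicate block and leaving out each library.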

Additional observations from a re-analysis of the deposited data

How the results depend on the processing

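The count of 7 members with a start peak in all 4 lists held under each window, score and list-length alternative and without each library. Of 67 settings of the counts and summaries, 50 stayed within the same limits and 17 did not. Shares in parentheses are over all genes with a value in the same setting. The number of members with both knockdown percentiles above was 0 (8.02%). It was 1 with a 1500 bp window (7.04%), 3 with lists of equal length (22.7%), 3 among shared starts (23.8%) and 0 by percentile of the fold (15.8%). When a library was left out it was 0 to 4 (4 without knockdown replicate 1, 16.9%). The number below was 2 (44.3%). It was 1 with lists of equal length (20.3%), 0 among shared starts (20.2%), 1 by percentile of the fold (33.9%) and 2 to 6 when a library was left out (6 without knockdown replicate 2, 63.3%, and 3 without mock replicate 2, 69.8%). For height, the number above was 3 (40.0%), and it was 1 over the median shared summit (35.9%) and 4 to 5 when a library was left out (44.8% to 63.4%). The number below was 0 (10.5%), and 0 to 1 when a library was left out (15.4% to 25.5%). The median summit distance was 91.8 bp, 110.5 bp from the outermost start and 84.7 to 94.7 bp when a library was left out. Peaks away from the start averaged 2.25 per list, 1 at a score of at least 100 and 1.67 to 2.67 when a library was left out.

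Of 49 settings of the member differences, 30 kept their sign. The replicate block is among these settings and cannot change a difference of group means. Its sign was therefore kept by construction at each of the 7 members. A kept sign did not always keep the size or the order of the groups. Among shared starts the difference of CCT1 went from 0.942 to 8.96 points, with the knockdown values now above the mock values, and CCT7 went from −11.1 to −1.48 points, with groups that overlapped. With lists of equal length these differences were 5.40 and −2.16 points. Among shared starts the sign turned, to 3.00 (CCT2), 7.82 (CCT4), 8.83 (CCT5), 3.41 (CCT6) and 9.51 (CCT8) points, and with lists of equal length to 1.63, 6.07, 7.52, 2.18 and 8.24 points. Leaving out a library gave −0.607 to 2.49 for CCT1, −10.5 to 3.70 for CCT2, −8.03 to 3.35 for CCT4, −9.91 to 4.91 for CCT5, −3.99 to −3.02 for CCT6, −13.9 to −8.30 for CCT7 and −12.1 to 7.78 for CCT8. Without knockdown replicate 2, the remaining knockdown value lay below both mock values at each of the 7 members but CCT1. The cause of these turns was not tested.

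With the replicate number as a block, the percentile counts stayed at 0 above (11.1%) and 2 below (52.6%) and the height counts at 3 above (44.7%) and 0 below (14.1%). The deviations of same-numbered libraries had a correlation over genes of −0.0723 for percentiles and −0.187 for log2 height. With 2 libraries a group, this cannot show whether same-numbered libraries shared a culture, which the labels do not say. Crossed pairing, added after seeing the data, gave 1 above (11.1%) and 3 below (56.3%) by percentile and 4 above (54.4%) and 0 below (15.4%) by height. The knockdown summits of CCT4, CCT5, CCT7 and CCT8 held 24 to 42 fragments, which limits the precision of their heights.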
